A study of Homo sapiens with 12 samples.

Results

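The cell cycle genes described here are 53 genes of 2 classes, chosen by symbol from the human gene annotation. The 20 G1/S genes act at the entry into S phase and in DNA synthesis, and the 33 G2/M genes act in mitotic entry, chromosome segregation and cytokinesis. All 53 symbols were found once among 20033 protein-coding genes on chromosomes 1 to 22, X and Y. A gene was called bound when the summit of a deposited HSF1 CUT&Tag peak, the base with the most reads in the peak, lay within 1 kb of any annotated transcript start of that gene.

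The study examined HSF1, the master transcription factor of the heat shock response, in Huh7, an established line of human hepatocellular carcinoma cells. CUT&Tag, in which an antibody brings a transposase to the protein so that the DNA beside it is cut out and sequenced, was made on untreated wild-type Huh7 cells with an antibody to HSF1 in 1 library and with an antibody to H3K27ac, a histone mark of active promoters and enhancers, in 1 library. With duplicates taken out, 2712212 of 3604911 HSF1 tags (75.2%) were left. From them 7342 peaks were called, 7147 of which lay on an autosome or a sex chromosome. For H3K27ac only 896393 of 15737890 tags (5.70%) were left. Of the 1392 H3K27ac peaks called, 1299 lay on an autosome or a sex chromosome. Peaks on any other sequence were left out of every count below, including those given for all HSF1 peaks. Neither library had a replicate, and no differences between classes of genes were tested, because genes of 1 library are not replicates. Shares carry 95% Wilson intervals, which cover counting error only. None of 15 hepatocyte and hepatoma markers, ALB and AFP among them, had an H3K27ac CUT&Tag summit within 1 kb of a start. Among all protein-coding genes the share was only 3.31%. An HSF1 summit was present at 4 of the 15 (APOA2, APOB, FGA and HNF4A). That is 26.7% (10.9 to 52.0), close to the 25.4% of all protein-coding genes. Through these markers the H3K27ac list did not show the labelled cell type. With so few summits at genes of any kind, the list could not exclude that cell type either.

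Genes of the cell cycle are switched on in waves. At the G1/S transition, E2F factors, released from the RB protein, turn on the genes for replication licensing and nucleotide synthesis through promoter words rich in G and C. Later, the genes of G2 and M phase are turned on by the MuvB complex together with B-MYB and FOXM1, through a short element called CHR (cell cycle genes homology region) that commonly lies just downstream of CCAAT boxes, which the trimeric factor NF-Y binds. HSF1 itself recognises the heat shock element, a row of GAA units in alternating orientation.

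Bound promoters with many CCAAT boxes are shown first, because CCAAT boxes were the feature that most members shared. All sequences run 5′ to 3′ on the strand of the gene and come from hg38, and of these upstream regions only stretches outside annotated exons are given. Capitals mark the CCAAT word or its complement ATTGG, the CHR words TTTGAA and TTCGAA, and the E2F words TTTGGCGC, TTTCCCGC, TTTCGCGC and TTTGCCGC, on either strand. CENPF and CKS1B lie on chromosome 1, CKS2 on 9 and CCNB2 on 15, and all of them are G2/M genes. MCM5 on chromosome 22 and CDC6 on 17 are G1/S genes.
CENPF, chr1:214603045-214603184, plus strand: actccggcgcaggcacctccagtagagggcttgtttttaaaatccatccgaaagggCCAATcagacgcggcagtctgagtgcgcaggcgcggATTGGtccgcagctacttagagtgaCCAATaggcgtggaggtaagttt
CKS1B, chr1:154974531-154974652, plus strand: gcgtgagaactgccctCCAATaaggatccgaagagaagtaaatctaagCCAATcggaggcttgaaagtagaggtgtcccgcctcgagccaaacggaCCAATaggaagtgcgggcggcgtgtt
CKS2, chr9:89311045-89311194, plus strand: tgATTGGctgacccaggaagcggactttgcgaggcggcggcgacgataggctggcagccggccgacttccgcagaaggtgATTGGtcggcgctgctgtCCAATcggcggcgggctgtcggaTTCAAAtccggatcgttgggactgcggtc
CCNB2, chr15:59104996-59105125, plus strand: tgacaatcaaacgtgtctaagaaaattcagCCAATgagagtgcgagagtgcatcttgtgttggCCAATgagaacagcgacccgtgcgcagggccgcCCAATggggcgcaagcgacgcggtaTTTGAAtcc
MCM5, chr22:35399990-35400133, plus strand: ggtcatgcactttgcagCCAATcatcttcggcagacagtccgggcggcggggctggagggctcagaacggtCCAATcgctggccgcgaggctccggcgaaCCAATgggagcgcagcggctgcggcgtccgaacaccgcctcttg
CDC6, chr17:40287729-40287878, plus strand: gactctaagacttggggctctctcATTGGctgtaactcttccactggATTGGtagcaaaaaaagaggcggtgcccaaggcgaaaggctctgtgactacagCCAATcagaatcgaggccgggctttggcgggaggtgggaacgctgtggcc

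In CCNB2, which encodes a mitotic cyclin, the centres of the 3 boxes lay at -118, -85 and -52 from the canonical start, 33 bp apart, and a CHR word followed at -26. CKS2, a subunit of cyclin-dependent kinase complexes, showed the same order with less even spacing, its boxes at -146, -68 and -50 and its CHR word at -26. CKS1B, its paralogue, had boxes at -132, -100 and -52 and a CHR word at -27, just past the end of the stretch printed. MCM5 and CDC6 had 3 boxes each and no CHR word. The promoter of MCM6, a further subunit of the replicative helicase, is added because it held 3 E2F words besides 2 CCAAT boxes, and E2F words marked the G1/S class. Its first E2F word stands alone and the other 2 overlap in 1 run of capitals.
MCM6, chr2:135876444-135876593, minus strand: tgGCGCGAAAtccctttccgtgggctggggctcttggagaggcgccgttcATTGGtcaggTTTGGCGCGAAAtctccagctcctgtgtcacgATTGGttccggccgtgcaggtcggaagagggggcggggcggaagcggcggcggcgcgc

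HSF1 summits were found at the starts of most genes of both classes. Of the G1/S genes 14 of 20 were bound (70%, 48.1 to 85.5), and of the G2/M genes 23 of 33 (69.7%, 52.7 to 82.6), against 25.4% of all protein-coding genes (5098 of 20033). Together 37 of 53 members were bound (69.8%, 56.5 to 80.5). The shares of the 2 classes were alike within their intervals, and the intervals of both lay above the 24.8 to 26.1% of the protein-coding genes. The 37 members were bound by 37 distinct highest peaks, so no peak was counted for more than 1 member.

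Among the G1/S genes, all 6 subunits of the MCM2-7 helicase, which unwinds DNA at the replication fork, were bound. So were CDC45, which activates that helicase, GINS1, a subunit of the GINS complex that joins it, and POLA1, the catalytic subunit of the primase-polymerase. PCNA, the sliding clamp of the replicative polymerases, CDC6, a loader of the helicase, TYMS, the enzyme that makes thymidylate, CCNE2, a cyclin that activates CDK2, and the transcription factor E2F1 completed the 14. The 6 without a summit were CDT1, the other loader of the helicase, ORC1, of the origin recognition complex, GINS2, the cyclin CCNE1, and RRM1 and RRM2, the large and small subunits of ribonucleotide reductase. Bound and unbound members thus stood side by side in the same complex or function: CCNE2 and CCNE1, GINS1 and GINS2, CDC6 and CDT1.

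Among the G2/M genes, the bound cyclins and their partners were CCNA2, CCNB1, CCNB2, the kinase CDK1 and its subunits CKS1B and CKS2. The phosphatases CDC25B and CDC25C, which activate CDK1, and CDC20 and UBE2C, an activator and the ubiquitin-conjugating enzyme of the anaphase promoting complex, were bound too. The spindle checkpoint genes BUB3, MAD2L1 and TTK were bound, while the checkpoint kinase BUB1 and its relative BUB1B were not. All 3 centromere genes of the class, CENPA, CENPE and CENPF, were bound. Of the kinesins, KIF20A was bound and KIF11 and KIF23 were not. The spindle and chromosome genes AURKA, TPX2, NUSAP1, PRC1, NEK2 and TOP2A were bound. AURKB and BIRC5, which are subunits of the chromosomal passenger complex, had no summit, nor had PLK1, FOXM1, MKI67, the gene of the proliferation marker Ki-67, or PTTG1, which encodes securin.

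No member lay near the 1 kb limit. The bound member with the most distant summit was CCNE2 at 510 bp from its nearest start, and the unbound member with the nearest summit was KIF23 at 6486 bp, where the peak had a pileup of 14. FOXM1 followed at 13507 bp, PTTG1 at 21873 bp and CCNE1, the nearest of the unbound G1/S genes, at 23164 bp. KIF11 at 283040 bp and RRM2 at 345013 bp were the farthest from any HSF1 summit. Absence from a list of this depth means that no peak was called, and binding below the caller's threshold was not detectable. Most summits sat close to a start: 35 of the 37 lay within 250 bp of one, with a median distance of 100 bp in the G1/S class and 107 bp in the G2/M class, against 94.5 bp in bound protein-coding genes. The summit was upstream of the nearest start in 12 of 14 G1/S and 17 of 23 G2/M genes, against 74.7% of bound protein-coding genes.

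The height of a peak is its pileup, a count of the extended tags that cover the summit, which was not scaled for depth. Fold enrichment is the pileup plus 1 over the local background of the same library plus 1. The median pileup was 16 in the 14 bound G1/S genes (95% interval of the median 11 to 19) and 14 in the 23 bound G2/M genes (10 to 17). The bound protein-coding genes had a median of 14, and all HSF1 peaks one of 13. Median fold enrichment was 6.97 (6.10 to 9.52) in the G1/S class and 7.54 (6.55 to 8.43) in the G2/M class, against 7.29 (7.22 to 7.33) in bound protein-coding genes. The G1/S class was therefore the higher by pileup and the lower by fold enrichment, both within the intervals, and its median local background was 1.14 tags against 0.80 in the G2/M class. In height, therefore, the peaks of the members were not set apart from those of other bound genes.

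In the G1/S class, and among all members, the highest peak was at PCNA, on chromosome 20, with a pileup of 41 and a fold enrichment of 12.4. Of all HSF1 peaks, 98.0% were lower in pileup. Its summit lay 64 bp upstream of an alternative start of PCNA, at -6732 from the canonical one, and within 1 kb of a start of CDS2, a lipid synthesis gene. A second PCNA peak, with a pileup of 21 and a fold enrichment of 6.59, had its summit 145 bp upstream of the canonical start. In the G1/S class CDC45 followed with a pileup of 21 and a fold enrichment of 8.66, its summit 8 bp upstream of a start and at -471 from the canonical one. MCM3 had a pileup of 19 and a fold enrichment of 9.52. POLA1, with a pileup of 18, had the second highest fold enrichment of the members, 10.3.

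The G1/S genes CCNE2, TYMS, MCM7 and E2F1 shared a pileup of 16, at fold enrichments of 7.87, 7.52, 6.39 and 5.99. These 4 completed the 8 highest peaks of the G1/S class. The remaining MCM subunits were lower: MCM4 had a pileup of 14, MCM5 and MCM2 had 11, and MCM6 had 9. GINS1 reached 12 and CDC6 reached 9. Fold enrichment was 7.28 in MCM4, 6.67 in MCM5, 6.33 in MCM6, 6.13 in GINS1 and 6.10 in CDC6. The 6 helicase subunits, which work as a single ring, therefore spanned pileups from 9 to 19 and fold enrichments from 5.36 in MCM2 to 9.52 in MCM3.

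In the G2/M class the highest pileup was 29, at CKS1B, with a fold enrichment of 7.54 over a local background of 2.98 tags, the highest among the members. CKS2 had a lower pileup of 24 and a higher fold enrichment of 9.77. TPX2, which targets Aurora A to the spindle, and AURKA, the gene of Aurora A itself, shared a pileup of 21, at fold enrichments of 10.1 and 9.82. NEK2, a centrosomal kinase, had a pileup of 19, BUB3 had 18, the spindle protein gene NUSAP1 17 and CDC25B 16, at fold enrichments of 8.33, 8.88, 8.33 and 6.85. CDC25C and MAD2L1 reached 15, CENPA and PRC1 14, CCNB1 and CENPF 13, CDK1 12, TOP2A 11, and KIF20A and UBE2C 10. The lowest were TTK at 9, CDC20 at 8, CCNA2 and CENPE at 7 and CCNB2 at 6. Fold enrichment among these 15 genes was from 4.94 in CCNA2 to 9.52 in CDC25C, with 8.43 in CENPA, 8.15 in PRC1, 7.83 in CDK1, 7.34 in MAD2L1, 7.32 in TOP2A and 6.73 in CENPF. It was 6.55 in KIF20A, 6.33 in TTK, 6.11 in UBE2C, 5.29 in CDC20 and 5.00 in CENPE.

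CCNB1 and CCNB2, which encode the B-type cyclins, thus differed in pileup, 13 against 6, and in fold enrichment, 8.54 against 5.15. A stricter threshold removed 5 members, those with the lowest fold enrichments. With peaks of -log10 q of at least 5 the G2/M class kept 19 of 33 genes (57.6%), without CCNA2, CCNB2, CDC20 and CENPE, and the G1/S class kept 13 of 20 (65%), without MCM2. The protein-coding share fell to 22.03% under the same threshold.

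Several members had more than 1 peak or shared their peak region with a neighbour. MCM7, PCNA, CDC25C and KIF20A had 2 summits within 1 kb of a start, 4 of 53 members against 1.41% of protein-coding genes. Only bound genes can have 2 summits, and among them the counts were 4 of 37 members and 282 of 5098 protein-coding genes. The second peak of MCM7 had a pileup of 11 and lay 552 bp downstream of the canonical start. That of CDC25C, also 11, lay at -6413 from the canonical start, beside an alternative one. It was 108 bp from that start and nearer, at 49 bp, to a start of FAM53C. KIF20A had 2 peaks with a pileup of 10 each, at -408 and -85 from the canonical start. The peak at -85 was nearest to a start of BRD8, at 74 bp.

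In 12 of the 37 bound members (32.4%) the highest summit was also within 1 kb of a start of another coding gene, against 34.2% of bound protein-coding genes. These were 7 of 14 in the G1/S class and 5 of 23 in the G2/M class. In 6 of them the start nearest to the summit belonged to the other gene: TPRA1 for MCM2, NDUFAF6 for CCNE2, ABHD12 for GINS1, FAM53C for CDC25C, OIP5 for NUSAP1 and SHC1 for CKS1B. The GINS1 summit lay at -16845 from its canonical start and 7 bp from a start of ABHD12. When a summit was given only to the gene of its nearest start, 11 of 20 G1/S genes (55%) and 20 of 33 G2/M genes (60.6%) remained bound, against 21.2% of protein-coding genes. For all 12 members, the position of the peak does not show on which of the neighbours, if any, HSF1 acts.

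A divergent coding neighbour, whose canonical start points away on the other strand within 1 kb, was present at 8 of 53 members and at 9.46% of protein-coding genes. Of the 8 members with such a neighbour 6 were bound, and of the 45 without one 31 (68.9%). In protein-coding genes the same shares were 53.1% and 22.6%. The interval of the members without a divergent neighbour (54.3 to 80.5) lay above its background share, and that of the members with one (40.9 to 92.9) included it.

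CCAAT boxes were searched from 150 bp upstream to 50 bp downstream of the canonical start. A box was present in 15 of 20 G1/S promoters (75%, 53.1 to 88.8) and in 29 of 33 G2/M promoters (87.9%, 72.7 to 95.2), against 28.5% of protein-coding promoters. At least 2 boxes were present in 9 of 20 G1/S promoters (45%) and 21 of 33 G2/M promoters (63.6%), against 8.27%. The members carried 87 boxes in all, and the mean number per promoter was 1.5 in the G1/S class, 1.73 in the G2/M class and 0.389 in protein-coding genes. The highest number was 4, in CDC45 and CENPF. AURKB, RRM2, PTTG1, MCM7, MCM5, CDC6, CKS1B, CKS2 and CCNB2 had 3, and in PTTG1 the centres of 2 of them lay 3 bp apart, so that these overlapped. The 9 promoters without a box were those of MCM2, CDT1, CCNE1, TYMS, GINS2, BUB1B, MAD2L1, BIRC5 and CENPE.

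The boxes sat at much the same place in both classes. The median position of a box was -79.5 in the G1/S class, -64 in the G2/M class and -73 in protein-coding genes. The box centre was upstream of the start for 84 of the 87, and for 92.5% of boxes in protein-coding promoters. In the G2/M class 9 of 28 neighbouring pairs (32.1%, 17.9 to 50.7) lay 29 to 35 bp apart, against 2 of 15 pairs in the G1/S class (13.3%, 3.74 to 37.9) and 21.8% of pairs in protein-coding genes. The intervals of the classes overlapped. Pairs 32 bp apart were found in AURKA, CCNB1, CDK1, NEK2 and CKS1B, and CCNB2 had 2 pairs 33 bp apart.

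**Figure D1:**
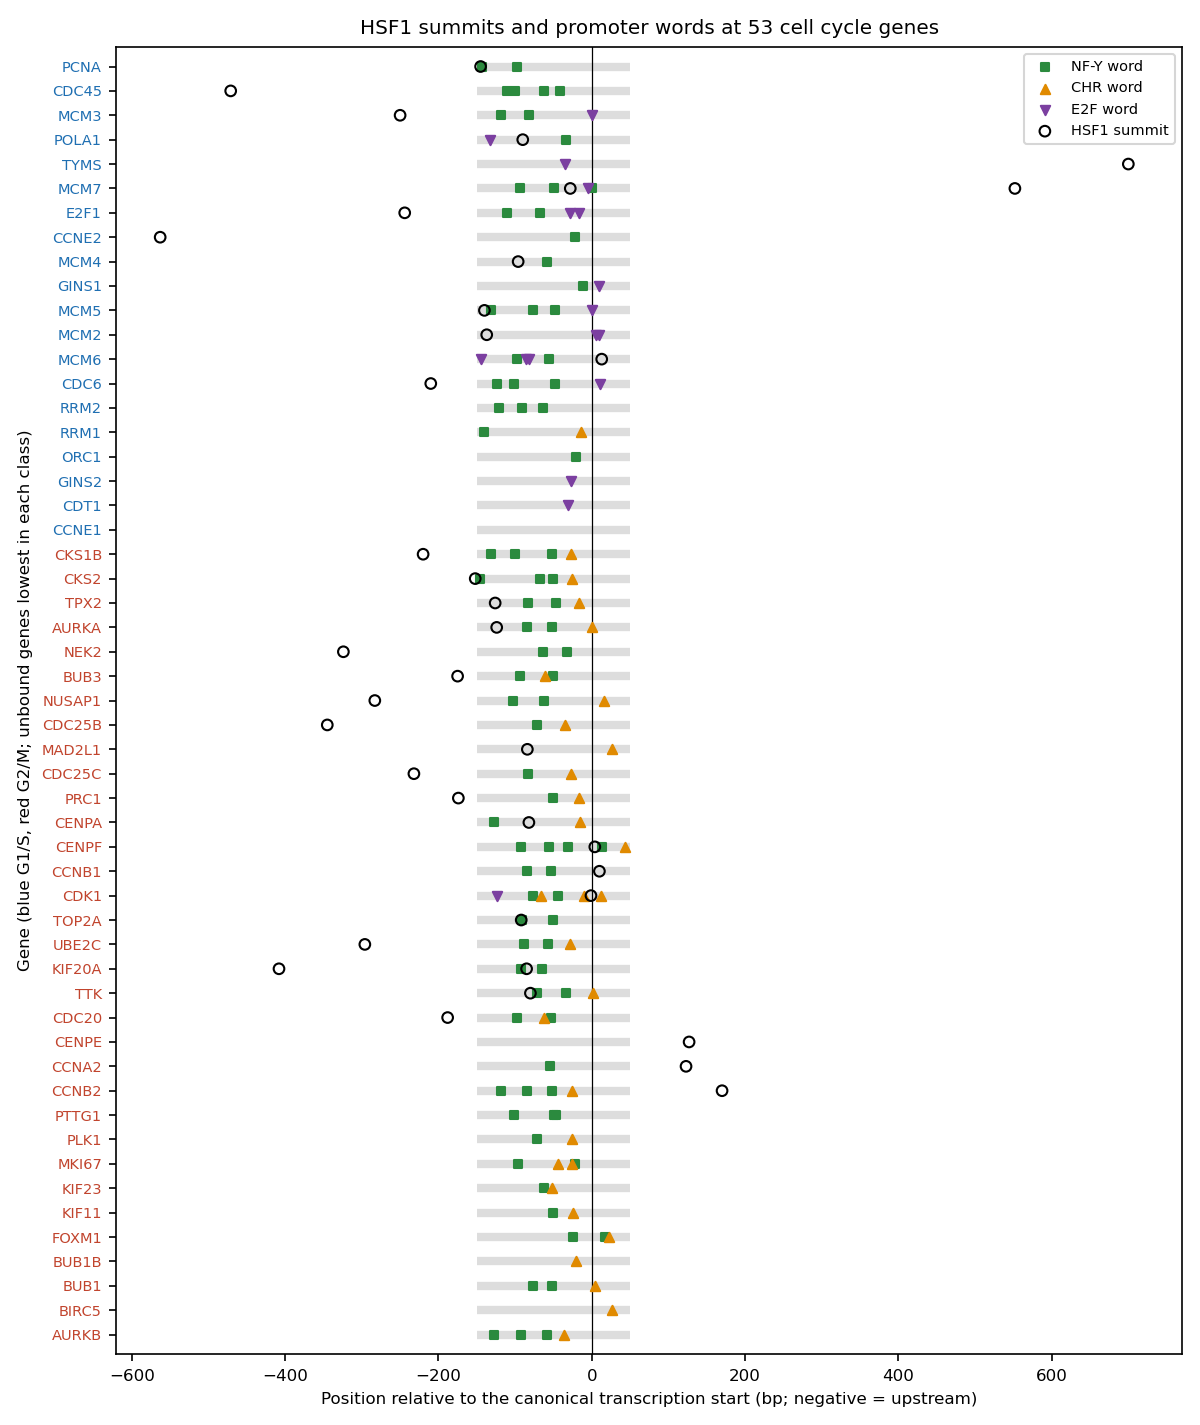
Positions in bp relative to the canonical start (x axis, negative is upstream) of HSF1 summits (open circles), NF-Y words (CCAAT, green squares), CHR words (orange triangles) and E2F words (purple triangles) at 53 members (y axis), G1/S names in blue and G2/M names in red; the grey bar is the window searched for words. The CHR words of the G2/M genes have a median position of -25 and their CCAAT boxes one of -64, although single CHR words, such as that of CDC20 at -62, lie between boxes, and the summits of PCNA (-6732), GINS1 (-16845) and CDC25C (-6413) fall outside the plot.

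The other promoter words divided the classes where the HSF1 summits did not. An E2F word was present in 12 of 20 G1/S promoters and in 1 of 33 G2/M promoters, that of CDK1, against 2.97% of protein-coding promoters. A CHR word was present in 26 of 33 G2/M promoters and in 1 of 20 G1/S promoters, that of RRM1, against 7.56% of protein-coding promoters. A CCAAT box together with a CHR word was found in 23 of 33 G2/M promoters (69.7%) and in 2.64% of protein-coding promoters. In these 23 promoters the CHR word lay a median of 29 bp from the nearest box, and in protein-coding promoters with both words 43 bp. G2/M genes with a CHR word were bound in 17 of 26 cases and those without in 6 of 7. Among protein-coding genes the shares were 21.8% with a CHR word and 25.7% without. G1/S genes with an E2F word were bound in 10 of 12 cases and those without in 4 of 8. Among protein-coding genes the shares were 35.9% with an E2F word and 25.1% without. The counts of the members are small and their intervals overlap widely.

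No heat shock element was found in the window of any member: 0 of 53, with an upper limit of 6.76%, against 2.71% of protein-coding promoters. The search asked for 3 neighbouring GAA units in alternating orientation, on either strand, with at most 1 mismatch in the 9 fixed bases. It covered only this window, and DNA beside summits outside the window was not searched for the element. The median summit of the bound G1/S genes lay at -175 from the canonical start, outside the window. The upper limit lies above the background share, so a difference from other genes was not detectable. The letters of the window say nothing about whether HSF1 itself touched the DNA there.

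The share bound was higher with more CCAAT boxes, beyond the intervals among all protein-coding genes and within them among the members. Of the members, 4 of 9 without a box were bound (44.4%, 18.9 to 73.3), 9 of 14 with 1 box (64.3%, 38.8 to 83.7) and 24 of 30 with 2 or more (80%, 62.7 to 90.5). Protein-coding genes had 22.5%, 27.8% and 44.9% in the same order. The G1/S class went from 2 of 5 through 4 of 6 to 8 of 9, and the G2/M class from 2 of 4 through 5 of 8 to 16 of 21. The members thus lay above the protein-coding genes at each number of boxes, with intervals that excluded the protein-coding share at 1 box and at 2 or more but not at 0. RRM2 and AURKB, with 3 boxes each, were among the 6 unbound members with 2 or more, together with PTTG1, BUB1, FOXM1 and MKI67.

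**Figure D2:**
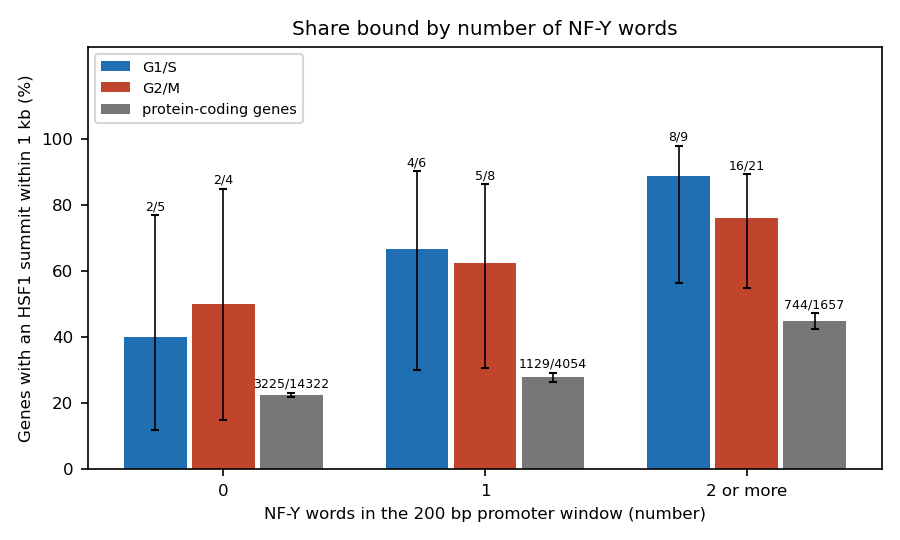
Share of genes in percent with an HSF1 summit within 1 kb of a start (y axis) for promoters with 0, 1, and 2 or more NF-Y words, that is CCAAT boxes (x axis), in G1/S genes (blue), G2/M genes (red) and protein-coding genes (grey), with 95% Wilson intervals as bars and bound over all genes above each. The protein-coding share goes from 22.5% to 44.9%, and the members lie above it in each group.

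Boxes were also counted beside the summits themselves, most of which sat close to a start. This count is not separate from that of the promoter window. There, 33 of 37 bound members (89.2%) and 36.7% of bound protein-coding genes had a box. A CCAAT box lay within 100 bp of the highest summit in 26 of 37 bound members (70.3%, 54.2 to 82.5), 11 of 14 in the G1/S class and 15 of 23 in the G2/M class, against 36.6% of bound protein-coding genes. Where there was one, the median distance from the summit was 38 bp in the G1/S class, 40 bp in the G2/M class and 30 bp in protein-coding genes. The bound members without one were MCM2, TYMS, CDC45, CCNA2, CCNB2, CDC25B, MAD2L1, CENPE, KIF20A, NEK2 and PRC1. CDC45 has 4 boxes near its canonical start, but its summit lay at -471 from that start. CCNB2 and NEK2 likewise have boxes, with the summit 170 bp downstream of the canonical start in the first and at -324 in the second. KIF20A has boxes at -92 and -65. Its summit at -408 was taken for a fold enrichment of 6.55 against 6.47, while its other peak, of equal pileup, lay at -85, near the boxes.

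The short sequences around the box nearest to the summit are given for bound members of both classes, to show the word at distances from 1 to 67 bp from the summit at promoters whose upstream stretch was not printed above, and around the box nearest to the start for RRM2 and AURKB, which were not bound. Capitals mark the CCAAT box, and positions are on hg38.
PCNA, chr20:5126684-5126713, minus strand, 9 bp from the summit: cgagaggcgcgcATTGGacggcagcgtcag
MCM7, chr7:100101431-100101460, minus strand, 21 bp from the summit: ccgccttgtccgATTGGcccgcacgcagtg
MCM3, chr6:52284967-52284996, minus strand, 10 bp from the summit: cctctcagccctATTGGtcagtttgctcgt
E2F1, chr20:33686547-33686576, minus strand, 67 bp from the summit: ccccgccccgccATTGGccgtaccgccccg
TOP2A, chr17:40417972-40418001, minus strand, 1 bp from the summit: aggcaagctacgATTGGttcttctggacgg
TPX2, chr20:31739193-31739222, plus strand, 43 bp from the summit: cggtctgtagggCCAATcgggagcctggaa
AURKA, chr20:56392284-56392313, minus strand, 40 bp from the summit: gtttgttgtcaaCCAATcacaaggcagcct
CCNB1, chr5:69167083-69167112, plus strand, 63 bp from the summit: gccacgaacaggCCAATaaggagggagcag
CDK1, chr10:60778420-60778449, plus strand, 43 bp from the summit: acgggctacccgATTGGtgaatccggggcc
RRM2, chr2:10122661-10122690, plus strand, not bound: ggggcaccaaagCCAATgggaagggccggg
AURKB, chr17:8210619-8210648, minus strand, not bound: cgacgagcttgcCCAATggggccggggcgg

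In TOP2A, the gene of a topoisomerase that untangles chromosomes, summit and box centre were 1 bp apart. CKS2 (6 bp), PCNA, CKS1B, MCM5 and TTK (9 bp each) and MCM3 and CENPF (10 bp each) followed. The box at PCNA given here belongs to its higher peak at the alternative start, while the boxes of its canonical promoter lie at -143 and -97, near the summit of its lower peak at -145. The boxes printed for E2F1 and MCM3 lie beyond the window used for the counts, in which E2F1 had boxes at -111 and -68 and MCM3 at -118 and -82. The unbound RRM2 and AURKB carried the same word in a like place.

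Base composition differed between the classes. The median GC content of the promoter window was 67.3% in the G1/S class, 61% in the G2/M class and 65.5% in protein-coding genes. Among promoters with 50 to 60% GC, 10 of 11 G2/M genes and 2 of 3 G1/S genes were bound, against 19.2% of protein-coding genes. At 60 to 70% the counts were 12 of 20 and 7 of 9 against 34.9%, and at 70 to 80% they were 0 of 1 and 5 of 7 against 31.6%. The members had a median of 7 annotated starts, which is more than the 5 of protein-coding genes and gives a summit more places to be counted. With the canonical start alone, 13 of 20 G1/S genes (65%) and 23 of 33 G2/M genes (69.7%) were bound, against 22.8%.

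H3K27ac CUT&Tag summits were scarce at the members as at other genes. They were present within 1 kb of a start at CDC45, CDC25C and TOP2A, 3 of 53 members (5.66%, 1.94 to 15.4), against 3.31% of protein-coding genes. All 3 were bound by HSF1, and 0 of the 16 unbound members had one, an upper limit of 19.4%. CDC45 had the highest, with a pileup of 20 and a fold enrichment of 11.1, its summit at -467 from the canonical start and so 4 bp from the HSF1 summit. CDC25C had a pileup of 9, beside its alternative start, and TOP2A one of 7, 84 bp upstream of the canonical start. Of bound protein-coding genes 10.1% had an H3K27ac summit and of unbound ones 0.998%. At the depth of this library, absence of a summit at the other members does not show that the mark was absent.

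Related genes of the cell cycle that are not members had shares bound between those of the members and of all protein-coding genes, with intervals that overlapped those of the members. Of 50 other mitotic genes 30 were bound (60%, 46.2 to 72.4), with a median pileup of 13.5. ECT2, ANLN, KIF18A and CENPN were among them, and NDC80, NUF2 and INCENP were not. Their promoters resembled those of the G2/M members, with a CCAAT box in 34 and a CHR word in 42 of 50. Of 40 other replication genes 20 were bound (50%, 35.2 to 64.8). ORC2, ORC3, ORC4 and ORC6 were bound while ORC5, like the member ORC1, was not, and of the clamp loader genes RFC1 to RFC5 only RFC5 was bound. The replication genes had a CCAAT box in 17 of 40 promoters and an E2F word in 14 of 40.

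For the controllers of both waves the shares lay between those of the members and of all protein-coding genes. Of 19 genes of the DREAM complex and the RB-E2F family 9 were bound (47.4%, 27.3 to 68.3): E2F3, E2F7, E2F8, TFDP2, LIN37, LIN52, LIN54, RBBP4 and MYBL1. RB1, RBL1, RBL2, E2F4 and MYBL2 were not. Of 20 further cyclins, cyclin-dependent kinases and their regulators, 9 were bound (45%, 25.8 to 65.8), among them CDK4, WEE1 and CDC25A, while the D-type cyclins CCND1, CCND2 and CCND3 were not. Of the kinase inhibitors, CDKN2A, CDKN2B, CDKN2C and CDKN2D were bound and CDKN1A, CDKN1B and CDKN1C were not. The anaphase promoting complex, which is regulated mainly through its activators, had fewer of these promoter words. Of its 15 genes 10 were bound (66.7%, 41.7 to 84.8), a share close to that of the members, but a CCAAT box was present in 3 of the 15 and a CHR word in 1.

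Heat shock genes are the classical targets of HSF1. Of 12, 6 were bound (50%, 25.4 to 74.6), namely HSPA8, HSPH1, HSP90AA1, DNAJB1 and the divergent pair HSPD1 and HSPE1, which share 1 peak. The summits of HSP90AA1 and DNAJB1 lay beside alternative starts, at -52718 and -10933 from the canonical ones. The 5 distinct peaks had pileups of 52 at HSPD1 and HSPE1, 37 at HSPA8, 18 at DNAJB1, 16 at HSPH1 and 11 at HSP90AA1. Their median was 18, against 16 and 14 in the bound G1/S and G2/M genes, and most of them lay within the range of the members, 6 to 41. HSP90AB1, DNAJA1, HSPB1 and BAG3 had no summit in these untreated cells. HSPA1A and HSPA1B, whose products are the inducible HSP70 proteins, had none either. The values of HSPA1A and HSPA1B are uncertain, since reads cannot be split with certainty between near-identical copies.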

How the data were processed

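HSF1 and H3K27ac CUT&Tag peak lists of untreated Huh7 cells were used, 1 library each. The authors aligned reads to hg38 and called peaks in each library by itself with MACS 2.1.4, using no control library, a p-value threshold of 1e-05 and 1 tag per position. The deposited pileup is a signal, extended tags over the summit without scaling. The deposited fold enrichment is a ratio to the local background of the same library. The deposited p-value of a peak is on the -log10 scale and is the caller's. A q-value column is present, also as -log10, although the deposited headers say that none was calculated, and it served only as a filter. The methods and the supplementary antibody list name different suppliers of the HSF1 antibody.

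Genes, transcript starts and canonical starts were taken from GENCODE release 44 on hg38. The members and lists were chosen with earlier results of these data known. Named by rule were every member as bound or not bound, with full values for the 8 highest peaks of each class, the members nearest to the 1 kb limit and promoters with 2 or more CCAAT boxes. Upstream sequences were printed for the 6 bound members with most boxes, ties in order of pileup. Unbound members were left out of this choice, among them AURKB, RRM2 and PTTG1, with 3 boxes each. CDC45 and MCM7 were passed over, having no stretch free of exons that was long enough to print. MCM6 was added after values were seen. No test was run, since each antibody has 1 library. Alternatives changed the window, the starts used, the peak threshold and the CCAAT word. The counting steps were tested on simulated data. The 2 H3K27ac ChIP-seq lists were not used, because their headers name hg19, and the 6 RNA-seq samples were not analysed here. Scripts ran in Python 3.11.15 with pysam 0.24.0 for sequences, pandas 2.3.3 and numpy 2.4.6 for tables, scipy 1.17.1 for intervals and matplotlib 3.10.9 for plots.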

Additional observations from a re-analysis of the deposited data

How the results depend on the processing

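For 15 results 54 alternatives were computed, and 43 stayed within the interval of the value reported. Among these were all 18 for the G1/S genes and all 18 for the G2/M genes, whose intervals are wide enough to hold large moves. The other 11 were values of all protein-coding genes, whose large number makes the intervals narrow. Their share bound was 24.3% within 500 bp, 26.3% within 2 kb, 22.8% with canonical starts only, 22.03% with peaks of -log10 q of at least 5 and 21.2% with each summit given to its nearest start. With the same q filter their median pileup was 15 and their median fold enrichment 7.63. The share of protein-coding promoters with CCAAT was 36.1% with 250 bp upstream, 59.4% around any transcript start and 16.04% when purines had to precede the word. Around any start the share with CCAAT was 85% in the G1/S class and 90.9% in the G2/M class. With preceding purines it was 55% and 78.8%. The share of protein-coding genes with an H3K27ac summit was 2.89% with canonical starts only. No paired analysis was possible because each antibody has 1 library. With 2712212 tags after duplicate removal, low peaks at single genes rest on as few as 6 tags, and the H3K27ac library, with 896393, gives counts of 3 or fewer among the members.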
